A study of Mus musculus with 24 samples.

Results

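The 10 immediate early genes Fos, Fosb, Fosl2, Jun, Junb, Egr1, Egr2, Nr4a1, Ier2 and Atf3 were followed through a light and dark cycle in the mouse retinal pigment epithelium (RPE), the pigmented layer that supports the photoreceptors. They were taken by name from a table of 54532 genes, and all 10 were found and passed the filter on low counts. The 24 libraries came from wild-type 129S1/SvlmJ mice with the Leu450 form of Rpe65, raised on standard diet under a cycle of 12 h light and 12 h dark with light from 7 am. Per the labels, 3 separate mice were taken at each of 8 times, which were 0, 1, 3, 5, 6, 9, 15 and 16 h counted from light onset. All groups share strain, genotype and housing, and they differ in time alone. The 15 h and 16 h mice were in the dark phase.

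Immediate early genes are transcribed within minutes of a stimulus without new protein synthesis, through factors such as SRF and CREB that already sit at their promoters. Most encode transcription factors. Fos and Jun family proteins pair to form AP-1, EGR proteins are zinc finger factors, and Nr4a1 is an orphan nuclear receptor. Their transcripts are short lived. Growth factors, cyclic AMP, calcium, light and stress raise them, and so can the handling of an animal or its tissue. The spread between mice of one time is therefore given beside each level.

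The levels below are CPM, the reads of a gene relative to its library's total reads, scaled by the trimmed mean of M-values. Libraries held 14073440 to 17492470 counts. The third mice of 15 h and of 6 h stood apart, at 199.9 and 49.3 on the first principal component against -25.1 to -3.46 in the other 22 libraries. Summed CPM of the 12 RPE markers was 125740 in the former and 58969 in the latter, and 37088 to 52771 elsewhere. Summed CPM of 5 red blood cell markers was 8767 and 3326 in them, and 399 to 1925 elsewhere. Mitochondrial genes made 0.837% and 3.34% of their counts, in the same order, and 3.84% to 6.81% elsewhere. Ribosomal protein genes made 5.17% and 2.38%, and 1.16% to 1.67% elsewhere. Their scaling factors were 0.729 and 0.966, and 0.983 to 1.05 elsewhere. Test results are given with all 24 libraries and with the other 22. Of the 12 RPE markers, Rpe65 (3566 to 11808 CPM), Rlbp1 (2688 to 4098) and Lrat (1098 to 2258) were abundant, as the tissue label states. Best1 was the lowest of the 12, at 2.42 to 5.61 CPM. Ttr (mean of 18143) and Rgr (11423) were the highest and weigh most in the sum. RNA from rods, inner retina and choroid was also counted, and in bulk tissue fewer cells of a type cannot be told apart from less RNA per cell.

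Promoters were read for 8 of the 10 members from RefSeq (GRCm38.p6), as the 250 bases before each start, in 12 windows, 5 of them of Egr2. Those of Egr1 and Ier2 were not available and were not read. The core TGACG of the CREB site, on either strand, was in 6 of the 8 (Fos, Fosb, Junb, Egr2, Nr4a1 and Atf3) and in 8 of the 12 windows, against 17.8% of all 32851 windows of the table. Of the 8, 3 are overlapping windows of Egr2 that hold the same 2 cores and the same CArG box. The CArG box, bound by SRF, was in Egr2 alone among the 8, in 4 of its 5 windows (1.47% of all windows). Bases farther than 250 from a start were not read, so a motif absent here can still lie outside the window. TATAAA was in Fos alone (12.4%) and the E-box CACGTG in Egr2 alone (6.02%). The full CREB site TGACGTCA (1.55%), the AP-1 site TGACTCA (4.46%) and the EGR site GCGTGGGCG (0.536%) were in none of the 12. A match is a run of letters and not a measured site, and TGACG is also part of TGACGTCA. The windows of Fos, Nr4a1 and Egr2 are shown because they hold 2 or more such cores each, in genes called over time with 22 libraries and not with 24 (edgeR). Capitals mark TGACG on either strand, the CArG box and TATAAA. They run 5′ to 3′ on the gene's strand at chr12:85473640-85473889, chr15:101266596-101266845 and chr10:67537619-67537868, all plus.
Fos: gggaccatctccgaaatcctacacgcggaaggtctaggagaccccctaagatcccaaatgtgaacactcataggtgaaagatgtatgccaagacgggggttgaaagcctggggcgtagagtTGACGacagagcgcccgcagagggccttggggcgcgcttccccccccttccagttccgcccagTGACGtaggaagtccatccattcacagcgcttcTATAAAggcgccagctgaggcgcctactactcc
Nr4a1: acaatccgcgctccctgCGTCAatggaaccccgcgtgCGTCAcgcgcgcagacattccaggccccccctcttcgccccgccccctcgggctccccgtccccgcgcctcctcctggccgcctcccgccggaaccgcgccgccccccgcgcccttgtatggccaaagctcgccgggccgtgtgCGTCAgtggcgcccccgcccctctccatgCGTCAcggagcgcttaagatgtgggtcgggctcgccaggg
Egr2: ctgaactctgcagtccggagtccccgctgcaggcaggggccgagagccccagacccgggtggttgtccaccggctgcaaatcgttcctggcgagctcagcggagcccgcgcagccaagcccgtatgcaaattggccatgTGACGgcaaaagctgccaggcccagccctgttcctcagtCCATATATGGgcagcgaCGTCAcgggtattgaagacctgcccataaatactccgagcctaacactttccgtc
The TGACG cores of Fos begin 129 and 66 bases before the start and its TATAAA 33 bases before. In Nr4a1 the 4 cores begin 233, 213, 69 and 40 bases before the start. In Egr2 the CArG box begins 72 bases before the start, with cores 111 and 55 bases before.

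Coordinates are those of GENCODE vM21 on GRCm38, counted from 1. Fos (ENSMUSG00000021250) spans 85473890 to 85477273 of chromosome 12 on the plus strand, and Egr1 (ENSMUSG00000038418) 34859823 to 34864984 of chromosome 18, plus. Nr4a1 (ENSMUSG00000023034) spans 101254269 to 101274795 of chromosome 15, plus, and Egr2 (ENSMUSG00000037868) 67535475 to 67542188 of chromosome 10, plus. Atf3 (ENSMUSG00000026628) spans 191170296 to 191218039 of chromosome 1, minus, and Ier2 (ENSMUSG00000053560) 84661331 to 84662852 of chromosome 8, minus. Junb (ENSMUSG00000052837) lies near Ier2 on chromosome 8, at 84974484 to 84978718, minus. Jun (ENSMUSG00000052684) spans 95049034 to 95052222 of chromosome 4, minus, Fosb (ENSMUSG00000003545) 19302696 to 19310051 of chromosome 7, minus, and Fosl2 (ENSMUSG00000029135) 32135801 to 32157842 of chromosome 5, plus. Reads carry no strand, and 7.28% of the exonic bases of Jun lie under the antisense gene Junos and 7.52% of those of Junb under Prdx2, so these values are less certain. No other member shares exonic bases with an annotated gene.

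Per kilobase of exon, the mean level over 24 libraries was highest for Ier2 (12.5 CPM per kb), Junb (11.4), Jun (11.1) and Egr1 (10.3). Nr4a1 (7.26), Atf3 (4.79), Fos (3.22) and Fosl2 (2.67) lay between. Egr2 (0.487) and Fosb (0.238) were lowest, with as few as 7 and 8 reads in a library.

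No member was called higher after the first hour of light. The times of their highest and lowest means differed between members. With 24 libraries the highest of the 8 time means was at 9 h for 4 members, at 15 h for 4 and at 0 h for 2. With 22 libraries it was at 15 h for 5, at 9 h for 3 and at 0 h for 2. The lowest was at 5 h for 4, at 6 h for 3 and at 16 h for 3 members, and with 22 libraries at 6 h for 8. No member had its highest or lowest mean at 1 h or 3 h. These are descriptions of means, and the tests follow by gene.

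**Figure D1:**
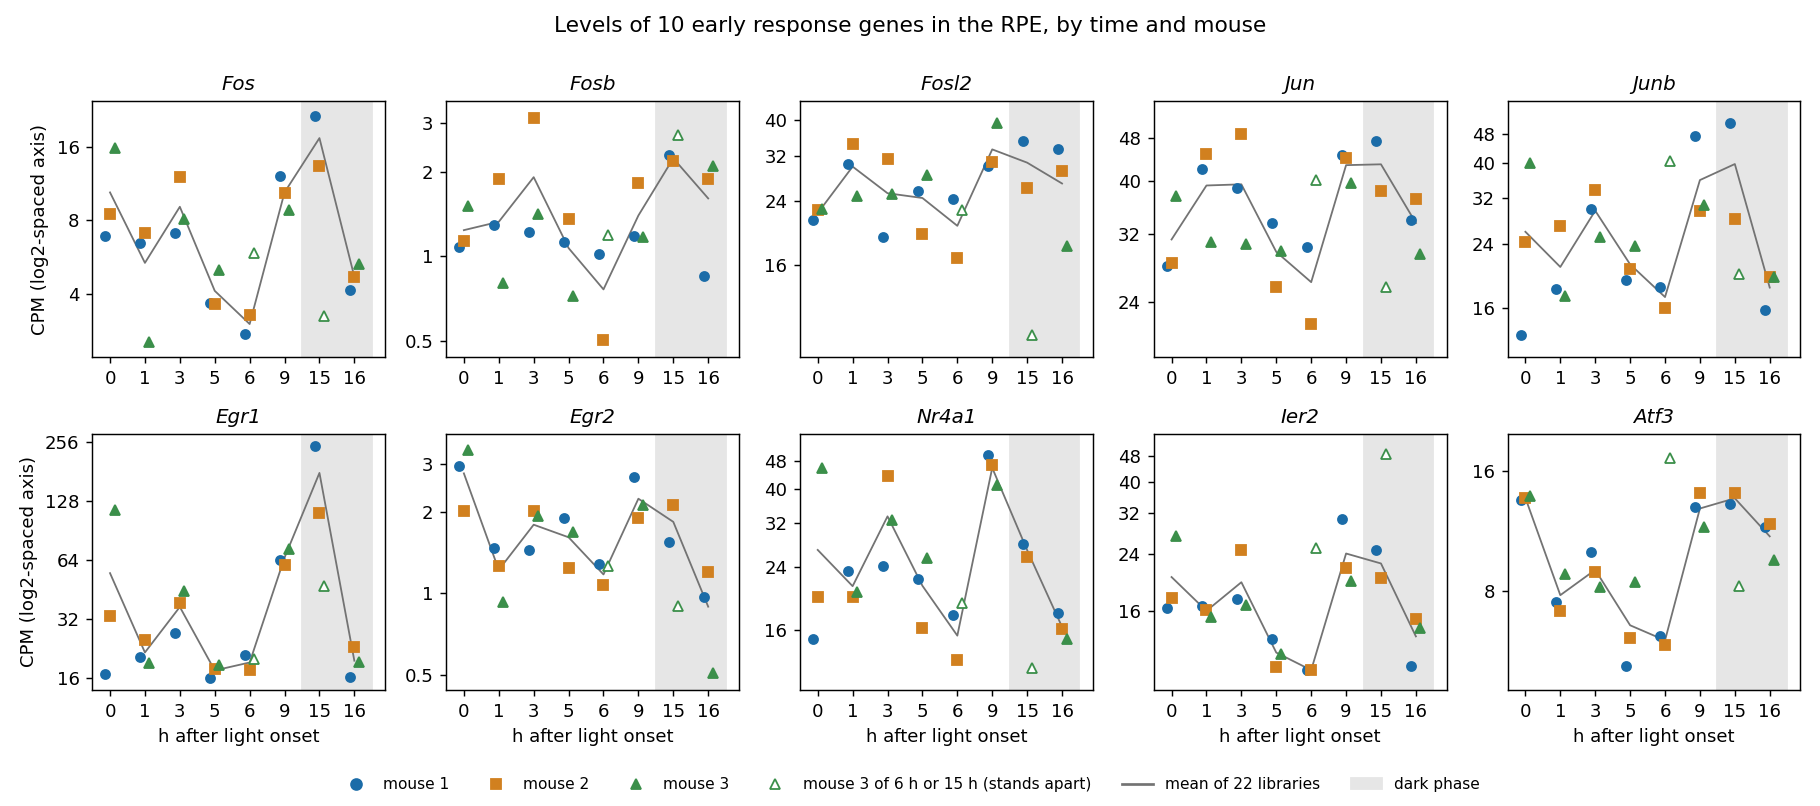
Each panel plots 1 gene in CPM (log2-spaced axis) against hours after light onset, with 1 point a mouse, open triangles for the 2 libraries that stand apart and a line through the means of the other 22. Egr1 lay between 60.5 and 73.1 CPM in the 3 mice of 9 h and between 16.0 and 18.6 in those of 5 h, while the mice of 0 h ran from 16.8 to 115.

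With 24 libraries, 1 of the 10 members varied over time (Egr1; edgeR F test over the 8 times, Benjamini-Hochberg adjusted p under 0.05), against 1.08% of the 18065 genes tested. With 22 libraries 6 of 10 did, Fos, Egr1, Egr2, Nr4a1, Ier2 and Atf3, against 15.6% of 18388 genes. At an unadjusted p under 0.05 the counts were 6 and 8. The share of all genes at this unadjusted cut was not counted, here or below, so such counts cannot be set against it. DESeq2 called 5 members in 24 libraries (Fos, Egr1, Egr2, Nr4a1 and Ier2; 1930 of 17993 genes), and limma-voom called Egr1 alone (177 of 18065). A single cosine of 24 h fitted none of the 10 past the threshold, with 24 libraries (1.67% of all genes called) or 22 (6.12%), in edgeR, and DESeq2 and limma-voom called none with 24 libraries. At an unadjusted p under 0.05 it fitted 1 and 2 of them. The time means of the members had more than 1 high point in the sampled day, which was not tested. For Fosb, Fosl2, Jun, Junb, Egr2 and Atf3 the ranges of all 7 neighbouring pairs in the order of the means overlapped. The sampled times leave gaps from 9 h to 15 h and from 16 h to the next light onset.

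Egr1, a zinc finger factor, had the widest range. It stood at 16.8, 33.1 and 115 CPM in mice 1, 2 and 3 of 0 h, at 20.6, 25.1 and 19.1 at 1 h, and at 27.3, 38.9 and 44.5 at 3 h. It was at 16.0, 17.8 and 18.6 at 5 h, 20.9, 17.5 and 19.9 at 6 h, and 64.1, 60.5 and 73.1 at 9 h. In the dark it was at 246, 111 and 47.5 at 15 h and at 16.3, 23.2 and 19.4 at 16 h. The 9 h mice and the 15 h mice lay above every mouse of 1, 3, 5, 6 and 16 h, and 0 h overlapped both ends. Its variation over time had an adjusted p of 0.00819 with 24 libraries and 0.00331 with 22 (edgeR), and from 2.58e-10 to 0.0496 over the 31 alternative settings, all under 0.05. In order of the means the times ran 15, 9, 0, 3, 1, 16, 6 and 5 h. The ranges of 6 of these 7 neighbouring pairs overlapped, all but 3 h above 1 h, and of 5 with 22 libraries, where 15 h also lay above 9 h. From 15 h to 16 h Egr1 differed by -2.78 ± 0.53 on the log2 scale (SE), with an adjusted p of 0.118 in edgeR. Without mouse 3 of 6 h and of 15 h it differed by -3.18 ± 0.56 (0.135). This contrast and that of 9 h with 6 h were chosen after the levels were seen.

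Egr2, a second EGR factor known for its role in Schwann cells, followed another order. Its 0 h mice stood at 2.94, 2.00 and 3.37 CPM, and those of 1 h at 1.48, 1.26 and 0.928. At 3 h it was at 1.44, 2.00 and 1.93, at 5 h at 1.90, 1.24 and 1.69, and at 6 h at 1.28, 1.07 and 1.26. The 9 h mice were at 2.69, 1.90 and 2.12, those of 15 h at 1.55, 2.12 and 0.901, and those of 16 h at 0.972, 1.20 and 0.506. The 0 h mice lay above all mice of 1, 5, 6 and 16 h. At 16 h Egr2 was below 0 h by a log2 difference of -1.61 ± 0.34, called with 22 libraries (edgeR, adjusted p = 0.00961) and not with 24 (-1.61 ± 0.35, 0.0733). Its variation over time had adjusted p = 0.115 with 24 libraries and 0.0184 with 22 in edgeR. Summed CPM of the melanocyte and Schwann cell markers was 4107 to 5711 at 0 h and 3996 to 4655 at 16 h, and their part in this difference was not tested.

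Fos, the founding partner of AP-1, stood at 6.89, 8.48 and 15.8 CPM at 0 h, 6.43, 7.09 and 2.54 at 1 h, and 7.11, 12.0 and 8.10 at 3 h. It was at 3.68, 3.65 and 5.01 at 5 h and 2.75, 3.27 and 5.86 at 6 h. It then reached 12.1, 10.3 and 8.77 at 9 h. The dark phase mice were at 21.4, 13.3 and 3.24 at 15 h and at 4.13, 4.69 and 5.28 at 16 h. Every 9 h mouse lay above every mouse of 1, 5, 6 and 16 h. At 15 h mice 1 and 2 were the highest and the third highest of all 24, and mouse 3, which stands apart, was below all mice of 16 h. With 22 libraries Fos varied over time (edgeR, adjusted p = 0.00223). With 24 it did not pass (0.154), and without mouse 3 of 15 h alone it did (0.00514). In the 22 libraries Fos was lower at 5 h than at 0 h by a log2 difference of -1.34 ± 0.35 (adjusted p = 0.0455) and at 6 h by -1.78 ± 0.42 (0.0309). With 24 libraries these were -1.34 ± 0.49 (0.528) and -1.39 ± 0.49 (0.362). With mouse number as a block in the fit of the 22, Fos was called at neither time.

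Fosb and Fosl2, the other Fos family members here, passed no edgeR test with 24 or 22 libraries. Fosb, a near relative of Fos, ranged from 0.503 CPM (mouse 2 of 6 h) to 3.12 (mouse 2 of 3 h). Its 15 h mice were at 2.30, 2.18 and 2.70, above every mouse of 0, 1, 5, 6, 9 and 16 h, and mouse 3 of 15 h was here the highest of the 3. Its night mean differed from its day mean by 0.61 ± 0.25 on the log2 scale (edgeR, adjusted p = 0.23). Fosl2, a Fos family member that lacks the strong activation domain of Fos, ran from 10.3 CPM in mouse 3 of 15 h to 39.3 in mouse 3 of 9 h. Its 0 h mice were close to each other, at 21.2, 22.7 and 22.8, below every mouse of 1 h (30.3, 34.4 and 24.8) and of 9 h (29.9, 30.7 and 39.3). Its variation over time had adjusted p = 0.706 with 24 libraries and 0.328 with 22.

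Jun and Junb, the Jun family partners of AP-1, differed in their spread. Jun stood at 27.9, 28.3 and 37.5 CPM at 0 h, 42.1, 44.7 and 30.9 at 1 h and 38.9, 48.7 and 30.7 at 3 h. It was at 33.5, 25.6 and 29.8 at 5 h, 30.3, 21.9 and 40.1 at 6 h and 44.7, 43.9 and 39.6 at 9 h. At 15 h it was at 47.4, 38.4 and 25.6 and at 16 h at 34.0, 37.1 and 29.4. The 9 h mice lay above those of 0, 5 and 16 h, and all 7 pairs of neighbours in the order of its time means overlapped. Junb, which can oppose Jun, stood at 13.5, 24.2 and 39.9 CPM at 0 h, at 18.3, 16.0 and 40.4 at 6 h, at 47.4, 29.4 and 30.6 at 9 h and at 51.3, 28.0 and 19.8 at 15 h. Its 16 h mice were at 15.8, 19.4 and 19.4, below every mouse of 9 h and 15 h. Neither gene varied over time past the threshold (edgeR; Jun 0.533 and 0.0904, Junb 0.466 and 0.127, with 24 and 22 libraries).

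Atf3, a stress induced bZIP factor that pairs with Jun proteins, had the least spread between mice at 0 h, where it stood at 13.5, 13.7 and 13.9 CPM. It was at 7.49, 7.09 and 8.78 at 1 h, 9.99, 8.91 and 8.16 at 3 h and 5.17, 6.07 and 8.39 at 5 h. At 6 h it was at 6.14, 5.85 and 17.3. All 0 h mice lay above all mice of 1, 3, 5 and 16 h, and mouse 3 of 6 h, which stands apart, was the highest of all 24. Atf3 was at 13, 14.1 and 11.5 at 9 h, 13.2, 14.1 and 8.20 at 15 h and 11.5, 11.8 and 9.55 at 16 h. With 22 libraries it varied over time (edgeR, adjusted p = 3.2e-05), but not with 24 (0.257), and without mouse 3 of 6 h alone it did (0.0127). With 22 libraries it was lower than at 0 h by -0.81 ± 0.15 at 1 h (adjusted p = 0.0147), -1.06 ± 0.16 at 5 h (0.000191) and -1.18 ± 0.18 at 6 h (0.000395), on the log2 scale. With 24 libraries the 6 h difference was -0.49 ± 0.30 (0.671), and the other contrasts kept their size and were not called.

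Nr4a1, the orphan nuclear receptor, had its highest mean at 9 h. It stood at 15.1, 19.8 and 45.8 CPM at 0 h, 23.4, 19.8 and 20.5 at 1 h and 24.2, 43.5 and 32.7 at 3 h. It was at 22.3, 16.2 and 25.5 at 5 h, 17.6, 13.1 and 19.0 at 6 h and 49.8, 46.8 and 41.1 at 9 h. At 15 h it was at 28.0, 25.7 and 12.4 and at 16 h at 17.8, 16.1 and 15.0. The 9 h mice lay above every mouse of 1, 5, 6, 15 and 16 h, and mouse 3 of 0 h lay within their range. All of its 15 h mice were below its 9 h mice, while Egr1 and Fos had higher means at 15 h, and this difference between genes was not tested. Its variation over time had adjusted p = 0.0925 with 24 libraries and 0.0351 with 22 (edgeR). With mouse number as a block in the fit of the 22, this was not called.

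Ier2, an early response gene for a nuclear protein, stood at 16.4, 17.6 and 27.2 CPM at 0 h, 16.6, 16.2 and 15.3 at 1 h and 17.5, 24.7 and 16.8 at 3 h. It was at 13.2, 10.8 and 11.8 at 5 h, 10.6, 10.6 and 25.1 at 6 h and 30.8, 21.7 and 19.8 at 9 h. At 15 h it was at 24.7, 20.2 and 48.8 and at 16 h at 10.9, 15.2 and 14.2. The libraries that stand apart were its highest of 6 h and of 15 h. Yet mouse 3 of 15 h was the lowest of its time for 8 of the 10 members, as for 51.5% of all genes. With 22 libraries Ier2 varied over time (edgeR, adjusted p = 0.00267), but not with 24 (0.154). In the 22 libraries it was lower than at 0 h by -0.77 ± 0.20 at 5 h (adjusted p = 0.0367) and -0.94 ± 0.23 at 6 h (0.0323), on the log2 scale. With 24 libraries these were -0.77 ± 0.33 (0.685) and -0.41 ± 0.33 (0.756). With mouse number as a block in the fit of the 22, Ier2 was called at neither time.

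All 7 contrasts with 0 h use 1 set of 3 libraries and are not independent. With 24 libraries edgeR called none of the 10 members at any of the 7 times, and called 0.0111% of all genes at 1 h, 0% at 3 h, 0.111% at 5 h, 0.166% at 6 h, 0.747% at 9 h, 0.41% at 15 h and 0.116% at 16 h. At an unadjusted p under 0.05 it found 3, 0, 5, 4, 1, 3 and 4 members at these times. DESeq2 called Egr2 at 6 h (180 of 15541 genes) and at 16 h (130 of 17641) and no other member, and limma-voom none. With 22 libraries edgeR called 1 member at 1 h (Atf3; 0.337% of all genes), 0 at 3 h (0.299%) and 3 at 5 h (Fos, Ier2 and Atf3; 2.9%). It called the same 3 genes at 6 h (2.35%), 0 at 9 h (8.1%), 0 at 15 h (1.41%) and Egr2 at 16 h (2.18%). All of these calls were lower than 0 h. The 10 rod markers, none at 0 in any library, were lower than at 0 h too. They summed to 2479 to 3870 CPM at 0 h, 657 to 1585 at 1 h, 673 to 2199 at 5 h, 1133 to 1731 at 6 h and 488 to 1516 at 16 h. At 3 h and 9 h, where no member was called, they summed to 973 to 1758.5 and 449 to 1029 CPM. At 15 h, also without a call, they summed to 831 and 417 in mice 1 and 2 and to 2511.5 in mouse 3. The part of rod RNA in these calls was not tested. At an unadjusted p under 0.05 there were 1, 3 and 2 members at 3 h, 9 h and 15 h.

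In the first hour of light the median difference of the 10 members was -0.34 on the log2 scale with 24 libraries, against 0.00 over all genes, and 3 of 10 were above 0 (Fosb, Fosl2 and Jun). Egr1 differed from 0 h by -1.35 ± 0.51, Egr2 by -1.18 ± 0.34 and Fos by -0.96 ± 0.48, none of them called. Without mouse 3 of 0 h the difference of Egr1 was -0.20. At 15 h Egr1 was above 0 h by 1.30 ± 0.50 (edgeR, adjusted p = 0.118). Without mouse 3 of 0 h it was above by 2.44 and was called. Without mouse 1 of 15 h it was above by 0.52.

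Night (15 h and 16 h, 6 libraries) and day (1 to 9 h, 15 libraries) were compared as the means of their times. With 24 libraries none of the 10 members was called by edgeR, DESeq2 or limma-voom (3 at an unadjusted p under 0.05), against 1.39% of all genes in edgeR. With 22 libraries Atf3 was called, higher at night by 0.58 ± 0.10 (adjusted p = 0.000459; 4.63% of all genes called). With 24 libraries its difference was 0.35 ± 0.18 (0.306). Egr1 was higher by 0.87 ± 0.29 with 24 libraries (adjusted p = 0.148) and by 1.07 ± 0.32 with 22 (0.0735). For Egr1 this mean joins a high time to a low one: it averaged 178.5 CPM at 15 h in the 22 libraries and 19.6 at 16 h.

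Between 6 h and 9 h all 10 members had a higher mean at 9 h. With 22 libraries every 9 h mouse lay above both 6 h mice for all 10 members, as for 20.5% of all genes, and with 24 libraries for 5 (Fos, Fosl2, Egr1, Egr2 and Nr4a1; 8.72%). With 22 libraries edgeR called 4 of them higher at 9 h, against 6.75% of all genes called in either direction. These were Fos by 1.78 ± 0.42 (adjusted p = 0.0192), Nr4a1 by 1.57 ± 0.38 (0.0262), Ier2 by 1.19 ± 0.23 (0.0076) and Atf3 by 1.10 ± 0.18 (0.00266), on the log2 scale. Egr1 (1.78 ± 0.60, 0.0902), Junb (1.06 ± 0.38, 0.112), Jun (0.71 ± 0.21, 0.0515) and Fosl2 (0.70 ± 0.27, 0.128) were not called. The median difference of the 10 was 1.08, against 0.00 over all genes. With 24 libraries none was called (5 at an unadjusted p under 0.05), against 0.0166% of all genes, the median was 0.65, and DESeq2 called Egr1 and Nr4a1 (155 of 15541 genes).

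The 9 h mice can also be set against those of 5 h and 16 h, times without the libraries that stand apart. With 24 libraries 9 h held the highest mean of 4 members, 5 h the lowest of 4 and 16 h the lowest of 3. These pairs join high times to low ones, so the counts describe the levels and are no separate support for a rise at 9 h. Every 9 h mouse lay above every 5 h mouse for 8 members, all but Fosb and Egr2 (13.2% of all genes). The 9 h mice lay above the 16 h mice for 7, all but Fosb, Fosl2 and Atf3 (15.5%). Choroid endothelial markers were higher at 9 h too: the summed CPM of all 9 was 676 to 1098 at 9 h, against 463 to 676 at 5 h, 412 to 770 at 6 h and 382 to 531 at 16 h. The 12 macrophage and mast cell markers summed to 2503 to 2911 CPM at 9 h, against 2074 to 2358 at 5 h and 2078 to 2385 at 16 h. At 6 h they summed to 2221 and 2081 in mice 1 and 2 and to 3383 in mouse 3. No marker of either list was at 0 in any library. Their part in the 9 h levels was not tested. At 15 h the choroid endothelial markers summed to 564 to 587 CPM and the macrophage and mast cell markers to 2013 to 2895. The 12 RPE markers summed to 40237 to 45357 CPM at 9 h, 44794 to 49235 at 5 h, 48229 to 58969 at 6 h and 44223 to 52771 at 16 h.

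From 15 h to 16 h most members had a lower mean. With 22 libraries both 15 h mice lay above all 16 h mice for 9 of 10 members, all but Fosl2, as for 17.2% of all genes. With 24 libraries this held for 4 (Fosb, Junb, Egr1 and Ier2; 9.28%). Yet edgeR called 0% of all genes and no member in either set (5 members with 24 libraries and 5 with 22 at an unadjusted p under 0.05), and limma-voom no member. DESeq2 called Fos, Egr1 and Ier2 with 24 libraries (907 of 14140 genes). Fos differed by -1.44 ± 0.49 with 24 libraries and -1.87 ± 0.37 with 22, and Ier2 by -1.22 ± 0.33 and -0.73 ± 0.22, on the log2 scale (edgeR). Leaving out mouse 1 or mouse 2 of 15 h brought Egr1 and Ier2 past the threshold, with 2615 of 18491 and 2878 of 18496 genes called. Leaving out mouse 3 of 0 h brought Egr1, the 1 gene called.

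**Figure D2:**
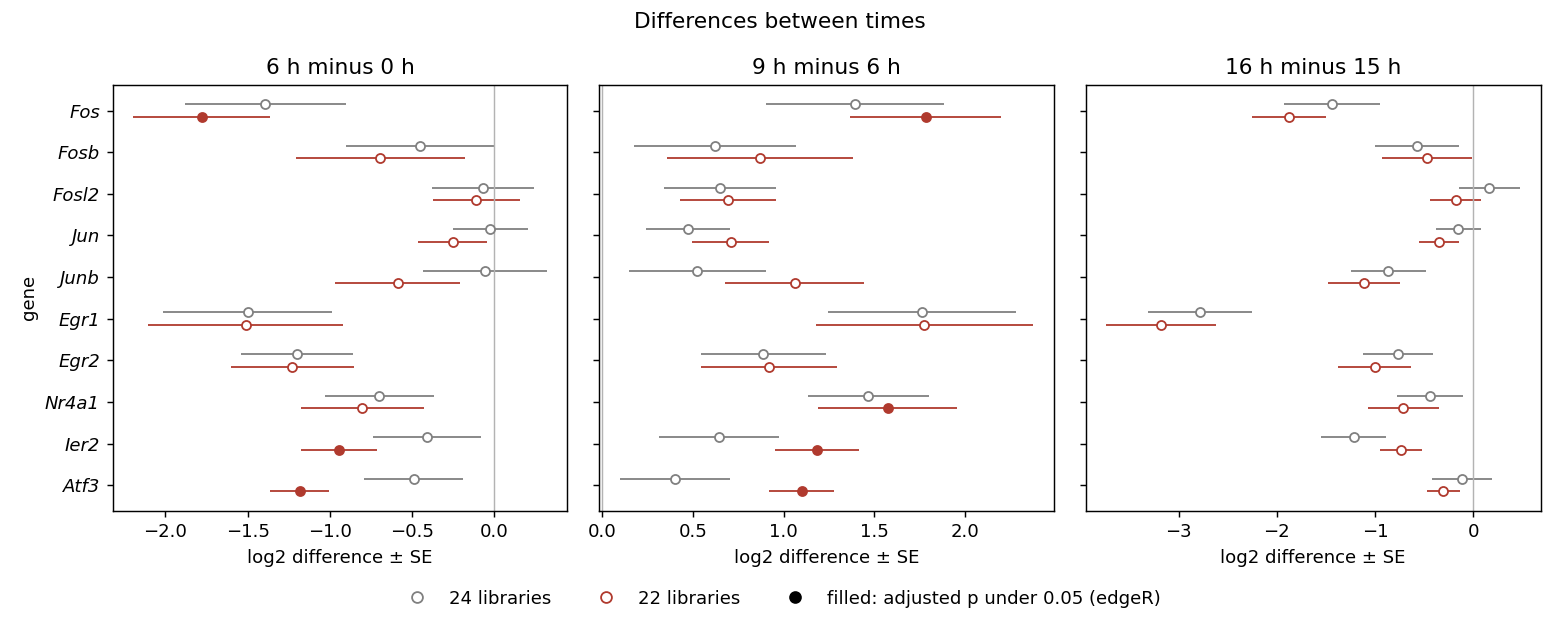
The log2 difference of each gene (x axis, bars are SE) is plotted for 6 h minus 0 h, 9 h minus 6 h and 16 h minus 15 h, in grey for 24 libraries and in red for 22, filled where the edgeR adjusted p was under 0.05. All 10 genes are above 0 from 6 h to 9 h, with Fos, Nr4a1, Ier2 and Atf3 filled for 22 libraries, and Egr1 has the lowest value from 15 h to 16 h (-2.78 and -3.18).

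The spread between mice of one time was wide for most members. The standard deviation (SD) of log2 CPM between the mice of a time, pooled over the 8 times, had a median of 0.43 over the 10 members and 0.34 over all genes with 24 libraries, and 0.35 and 0.19 with 22. Egr1 (0.68, at the percentile 81.0 of all genes) and Fos (0.67, 80.4) varied most, then Junb (0.50), Fosb (0.49), Nr4a1 (0.44) and Fosl2 (0.43). Ier2 (0.42), Atf3 (0.38), Egr2 (0.37) and Jun (0.30, at the percentile 43.7) varied least. With 22 libraries Egr1 was at 0.60 (percentile 87.4) and Atf3 at 0.17 (45.3). The SD between the 8 time means exceeded that between mice for 4 members with 24 libraries, Egr1, Egr2, Nr4a1 and Ier2. With 22 libraries it did for 8, all but Fosb and Fosl2. The share of all genes for which it did was not counted. The median spread between mice fell over all genes too, from 0.34 to 0.19. For Egr1 the SD between times was 0.96 with 24 libraries and 1.12 with 22.

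**Figure D3:**
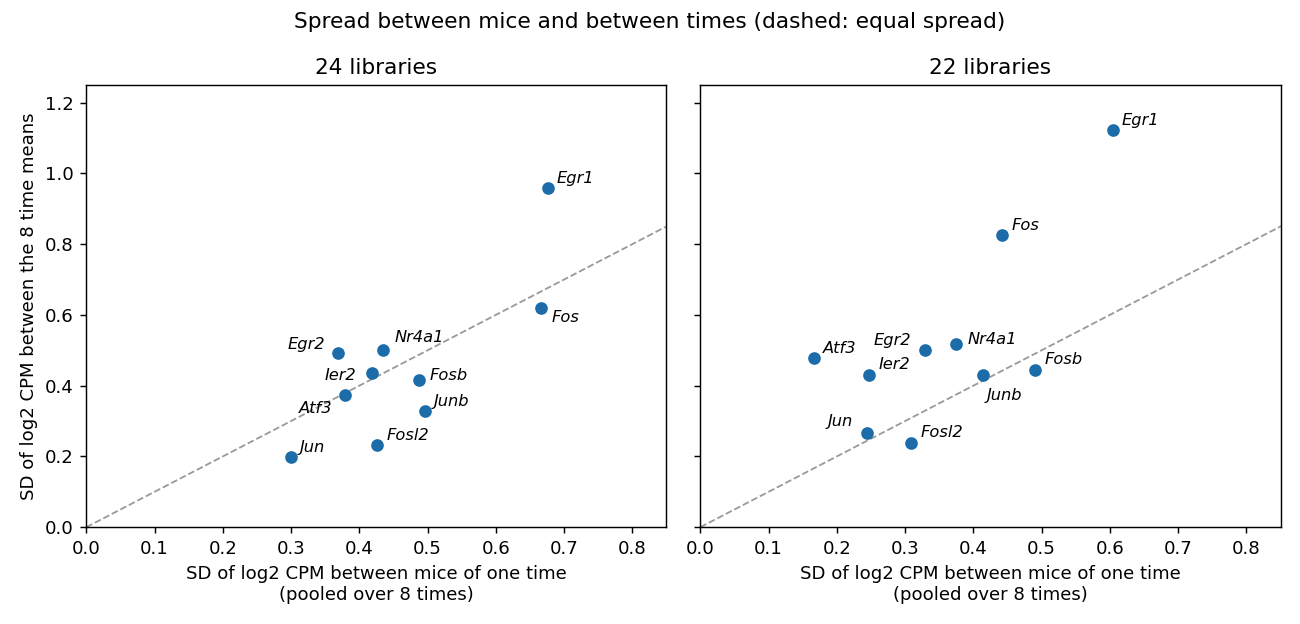
Each point is 1 gene, with its SD of log2 CPM between mice of one time on the x axis and between the 8 time means on the y axis, for 24 libraries (left) and 22 (right), and the dashed line marks equal spread. Egr1 lies above the line in both panels, Atf3 moves left from 0.38 to 0.17 without the libraries that stand apart, and Fosb and Fosl2 stay below the line.

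The spread differed between times. The median SD of the 10 members was 0.38 at 0 h, 0.26 at 1 h, 0.34 at 3 h and 0.27 at 5 h. It was 0.50 at 6 h and 0.65 at 15 h with 24 libraries, 0.18 and 0.26 between the pair of mice left in the 22, and 0.22 at 9 h and 0.21 at 16 h. Over all genes it ran from 0.15 to 0.18 at the 6 times without such a library. The 3 mice of 0 h were the least alike for several members and the most alike for others. Egr1 differed 6.84-fold between the highest and the lowest mouse of 0 h, Nr4a1 3.03-fold, Junb 2.96-fold and Fos 2.29-fold, while Fosl2 differed 1.07-fold and Atf3 1.03-fold. At 15 h, with mouse 3, Fos differed 6.59-fold and Egr1 5.17-fold. Without it they differed 1.61-fold and 2.21-fold.

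Some mice that were high for 1 member were high for most of the rest. Mouse 3 of 0 h was the highest of its time for all 10 members, as for 33.9% of all genes. Mouse 1 of 0 h was the lowest for 9, as for 37.5% of all genes. Against the mean of the other mice of 0 h, mouse 3 was 4.61-fold higher for Egr1, 2.62-fold for Nr4a1, 2.12-fold for Junb, 2.05-fold for Fos and 1.61-fold for Ier2. For Fosl2 and Atf3 it was 1.04-fold and 1.02-fold. The same mouse was highest for 25 of 35 early response feedback and effector genes, 11 of 19 other early response transcription factors and 6 of 14 heat shock genes. Its RPE markers summed to 37649 CPM, against 43907 and 43240 in mice 1 and 2, and its choroid endothelial markers to 750, against 478 and 561. Their part in its early gene levels was not tested. The labels give no order or length of dissection, so the part of handling was not tested either.

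At each other time too, 1 mouse was the highest for 6 or more members, and with 3 mice 1 of them must lead. Mouse 2 of 1 h was highest for 6 members (32.1% of all genes), as were mouse 3 of 5 h (34.7%) and mouse 2 of 16 h (32.7%). Mouse 2 of 3 h was the highest of its time for 8 members (27.6% of all genes), mouse 3 of 6 h for 7 (44.0%) and mouse 1 of 15 h for 6 (28.9%). At 9 h mouse 1 was highest for 6 members (32.4%), and mice 2 and 3 for 2 each (33.1% and 34.5%). Mouse 1 of 15 h, with Egr1 at 246 CPM, Fos at 21.4 and Junb at 51.3, held the highest level of the 24 libraries for each of these 3 genes. Its inner retina markers summed to 3226 CPM, against 2766 in mouse 2, and its lens and ciliary body markers to 229, against 3.51. Their part was not tested.

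**Figure D4:**
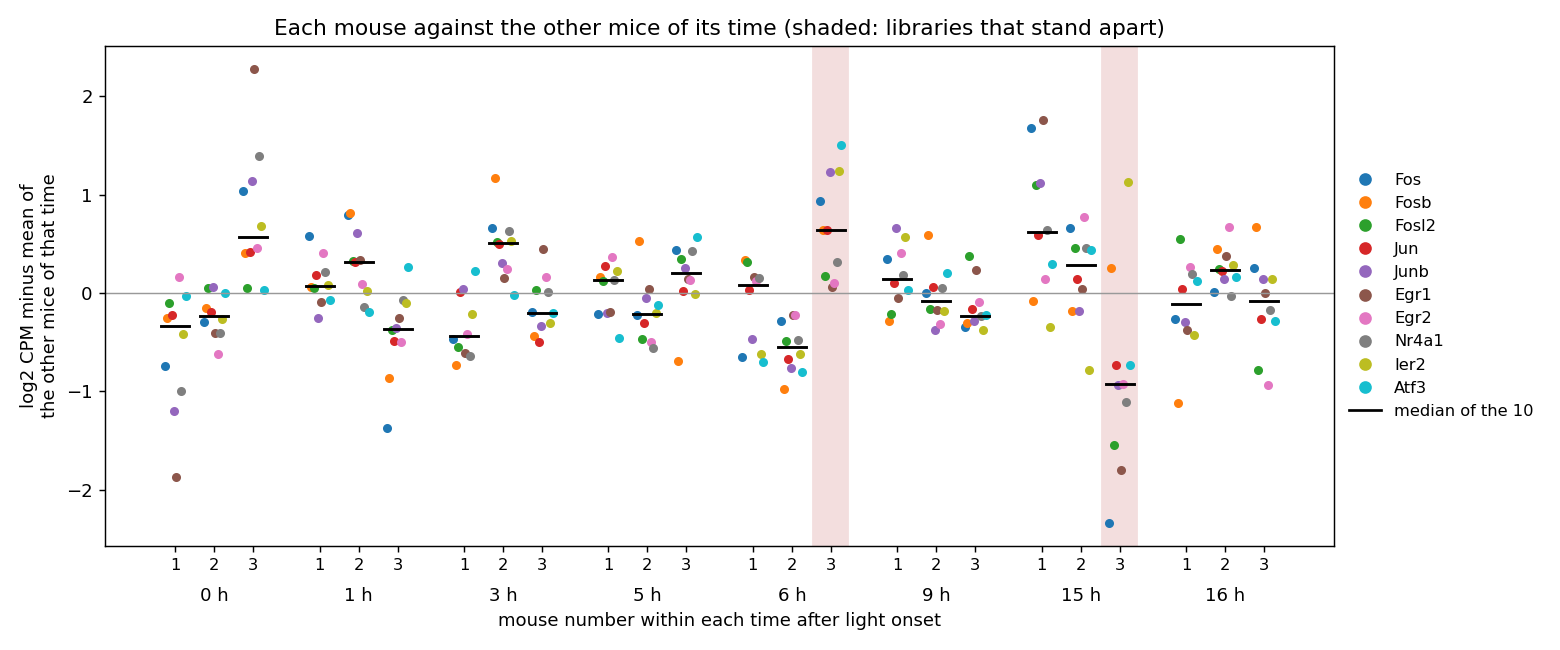
Points give the log2 CPM of each gene in 1 mouse minus the mean of the other mice of that time (y axis), by mouse and time (x axis), with a black bar at the median of the 10 genes and shading for the libraries that stand apart. Mouse 3 of 0 h has all 10 points above 0 with a median of 0.57, mouse 2 of 3 h has a median of 0.50, and mouse 3 of 15 h a median of -0.93.

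The likeness of other genes to Fos between mice of one time was described as the correlation of their deviations from the time mean, over 22 libraries and the 15414 genes that averaged 1 CPM or more. These libraries differ in depth and in the RNA of other cell types, which both genes of a pair share, so the values carry no test. The most alike was Tnfrsf22, a decoy receptor of the TNF family (Pearson r = 0.857, Spearman rho = 0.75). Csf1, the macrophage growth factor, followed at 0.839, and then Psmb8, an immunoproteasome subunit (0.804), Chek2, a DNA damage kinase (0.803), Gm9385 (0.799) and Dusp2, a MAP kinase phosphatase (0.789). Izumo4 (0.761), Kctd17 (0.76), Mknk2, a kinase activated by ERK and p38 (0.759), and Dusp1, a phosphatase that is itself an early gene (0.758), closed the first 10. None of these 10 was a member.

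Of the members, Junb was most like Fos (0.741, rank 15 of 15414), then Ier2 (0.672), Jun (0.651), Egr1 (0.647) and Nr4a1 (0.613). Fosb (0.499), Fosl2 (0.318) and Egr2 (0.294) were less so, and Atf3 had r = -0.12. Mouse 3 of 1 h and mouse 3 of 0 h lay farthest from the median of Fos. Without them r was 0.73 for Junb, 0.634 for Egr1, 0.693 for Ier2, 0.742 for Tnfrsf22 and 0.08 for Egr2. Over the 8 time means of the same 22 libraries, the genes most like Fos were Vps37d (0.972), Pus7l (0.968), Dok1 (0.968), Rab3d (0.96) and Psmg4 (0.96). Among the members Ier2 (0.941), Egr1 (0.932), Junb (0.92) and Atf3 (0.853) had the highest values and Fosl2 the lowest (0.545). For Atf3 the value was thus 0.853 over the times and -0.12 between the mice of a time.

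Other genes of the early response were counted from lists. Of 12 other AP-1 proteins 0 varied over time with 24 libraries and 5 with 22 (Jund, Maff, Jdp2, Mafk and Mafg). Their most abundant were Atf4 (118 CPM), Atf7 (82.0), Mafg (81.8) and Jund (56.6). Other genes share 52.6% of the exonic bases of Jund and 11.7% of those of Atf7, so these values are less certain. Of 19 other early response transcription factors tested, out of 20 listed, 0 and 8 varied, among them Sertad1, Ier5l, Csrnp1, Ier5, Egr3, Atf5 and Klf2. Klf2, a flow-responsive factor of endothelium, averaged 39.6 CPM at 6 h and 88.1 at 9 h in the 22 libraries. The shares over all genes are those given above, 1.08% and 15.6%. Counts at an unadjusted p under 0.05 with 24 libraries were 1 of the 12 and 4 of the 19.

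Of the 35 feedback and effector genes, 2 varied over time with 24 libraries, Spry2 (adjusted p = 0.0193), an inhibitor of receptor kinase signalling, and Zfp36l1 (0.0255), which promotes decay of AU-rich transcripts. With 22 libraries 24 did. Of the exonic bases of Zfp36l1, 55.9% lie under the gene Gm26669, so its values are less certain. A 24 h component was called for Spry2, Ptgs2 and Thbs1 with 24 libraries. Ptgs2, the inducible cyclooxygenase, had 3.57 CPM on average at 0 h and 9.45 at 9 h in the 22 libraries, and Thbs1, a matrix glycoprotein, 2743 and 1098. Dusp1 averaged 34.6 CPM at 0 h, 17.8 at 6 h, 54.7 at 9 h, 54.4 at 15 h and 26.1 at 16 h, in the 22 libraries. From 6 h to 9 h, 10 of the 35 were called higher and 0 lower with 22 libraries, with a median of 0.54. For the other early factors it was 4 higher and 0 lower of 19, with a median of 0.44. Over all genes 6.75% were called in either direction with 22 libraries. With 24 libraries 0 of the 35 and 0 of the 19 were called (0.0166% of all genes), with medians of 0.235 and 0.29.

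Of 22 upstream factors and kinases, such as Srf, Elk1, Creb1 and Mapk3, 0 varied over time with 24 libraries (5 at an unadjusted p under 0.05) and 4 with 22 (Nab2, Mapk3, Elk3 and Srf). Nab2 encodes a co-repressor of EGR proteins. Other genes share 42.2% of its exonic bases, so its values are less certain. Of 14 heat shock genes 0 varied with 24 libraries (6 unadjusted) and 6 with 22. From 6 h to 9 h, 3 of them were called lower and 0 higher with 22 libraries (6.75% of all genes in either direction). With 24 libraries 0 were called (0.0166%). Hspa1b, an inducible HSP70 gene, had a 24 h component (adjusted p = 0.0304) and averaged 19.4 CPM at 15 h and 13.9 at 16 h in the 22 libraries. Of 13 glucocorticoid and light responsive genes, 7 varied over time with 24 libraries (Per1, Cish, Fkbp5, Tsc22d3, Sgk1, Per2 and Cdkn1a) and 12 with 22. Per1, a clock gene with an early response to light, averaged 31.6 CPM at 0 h and 113 at 1 h, and Cish, a feedback inhibitor of cytokine receptors, 8.84 and 29.0. Other genes share 11.5% of the exonic bases of Cish and 7.68% of those of Cdkn1a.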

How the data were processed

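RNA of the RPE was sequenced from 3 mice at each of 8 times, with NEBNext Ultra libraries per the labels' protocols. The authors deposited raw read counts per gene; STAR, HTSeq and mm10 are named in the submitters' processing notes, and their versions and settings are not given in the sources used here. All columns matched a sample title. Counts were tested with edgeR 4.0.16 in R 4.3.3 (TMM, filterByExpr with a minimum count of 10, robust quasi-likelihood F tests), fitting all times together and adjusting over all genes by Benjamini-Hochberg at 0.05. The filter kept 18065 genes with 99.92% of counts. CPM on the log2 scale used a prior count of 2. Alternatives were DESeq2 1.42.0, limma 3.58.1 with voom, DESeq2 size factors, no filter, a replicate block, and leaving out libraries. Tests were checked on simulated data.

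All members were named. One gene of another list is not reported here by name. From other lists, genes called over time or in the 24 h fit and the most abundant were named. The 10 genes most like Fos between mice and the 5 most like it over time means were also named. Genes of other lists called only with 22 libraries, and Klf2, were named after their values were seen. The members and lists were chosen with earlier results of these data known. The contrasts of 9 h with 6 h and 16 h with 15 h were added after seeing the data. Comparing the ranges of 9 h with those of 5 h and 16 h was not planned either. With 3 mice a time, precision is limited, and counts below 10 reads, as in Fosb and Egr2, carry large counting error. Positions came from GENCODE vM21, where 54495 identifiers were found, 98.3% of them with the same start and end.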

Additional observations from a re-analysis of the deposited data

How the results depend on the processing

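Counts of members called moved with the libraries used and with the tool, and the cause was not tested. Below, both means mouse 3 of 6 h and of 15 h. The count varying over time was 1, and 6 without both, 5 with DESeq2, 5 with the replicate block without both, and 1 to 4 when a library was left out in turn. Leaving out mouse 3 of 6 h gave 3 (Egr1, Ier2 and Atf3; 309 of all genes), mouse 3 of 15 h gave 4 (Fos, Egr1, Egr2 and Nr4a1; 1215), mouse 2 of 15 h gave 3 (864), and either mouse 3 of 0 h (140) or the first mouse of 15 h (854) gave 2. Over all genes the count was 195, against 2870 without both and 1930 with DESeq2. Against 0 h the count was 0 with 24 libraries. Without both libraries it was 1 at 1 h, 3 at 5 h, 3 at 6 h and 1 at 16 h. With the replicate block as well it was 1 at each of these times, Atf3 at 1, 5 and 6 h and Egr2 at 16 h, without Fos and Ier2, and Nr4a1 was then not called over time. DESeq2 gave 1 at 6 h and 1 at 16 h. Leaving out a library in turn gave 0 to 1 at 5 h, 15 h and 16 h and 0 to 2 at 6 h. Night against day gave 1 without both libraries, 1 with the block as well, and 0 to 1 leaving out each. From 6 h to 9 h the count was 4 without both, 2 with DESeq2, 5 with the block without both, and 0 to 1 leaving out each. From 15 h to 16 h it was 3 with DESeq2 and 0 to 2 leaving out each. At 3 h, at 9 h and for the 24 h component it was 0 in all 31 alternatives. The replicate block with 24 libraries gave 1 over time and 0 elsewhere. Whether mouse numbers pair the libraries was not tested. Of 84 same-number pairs 17 correlated above 0.1 (-0.32 to 0.53), and 12 of 24 libraries were closest to one of their own number. Pairs of unlike number were not counted. The median spread within times, 0.43, ran from 0.35 to 0.48. No printed log2 difference changed direction. In 907 genes DESeq2 called a difference from 15 h to 16 h where edgeR called 0. Depth limits Fosb and Egr2 most.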
